A study of Apis mellifera with 4 samples.

Results

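Insulin and TOR pathway genes were examined in honeybee (Apis mellifera) larvae at 60 hours of larval development, when larvae are being raised as either queens or workers. Members were the rows of the deposited gene table that carry any of 16 names for insulin-like peptides, the insulin receptor and its adapter, the EGF receptor, and further components of the insulin and TOR pathways, ignoring case and hyphens. Of 11156 genes in the table, 8 were members, and 7 of them are described: ILP-2, IRS, Akt1, foxo, Tsc1, Rheb and Tor. Of the 16 names, 8 (ilp1, inr, inr1, inr2, chico, egfr, s6k and tsc2) matched no row, so that neither the EGF receptor nor an insulin receptor was among the members, and the results concern the insulin and TOR pathways. One insulin receptor, InR-2, is listed in the table as LOC725827, a match made by the RefSeq gene number, and it was described with the other genes of the pathway.

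Insulin-like peptides bind a receptor at the cell surface, and adapters such as IRS pass the signal to PI3-kinase, whose lipid product recruits and activates the kinase Akt1. Akt1 in turn keeps the transcription factor foxo out of the nucleus. The TOR kinase promotes growth when amino acids are plentiful, the GTPase Rheb switches it on, and the complex of Tsc1 with Tsc2 (gig in Drosophila) holds Rheb off. In honeybees these pathways, with the EGF receptor, are known as a route by which food shapes the queen and worker forms.

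RNA was sequenced from 2 queen and 2 worker samples, each a pool of whole larvae and an independent biological replicate. Queen larvae had been grafted soon after hatching into queen cells in a hive without a queen, whereas worker larvae were not grafted and grew in another hive that had one. All larvae came from single-drone inseminated queens of a closed population, no gene was altered and no compound was given. Caste therefore cannot be told apart from grafting and rearing hive. In bulk samples of this kind, fewer cells of a type and less RNA per cell cannot be told apart either.

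Per sample, 5219511 and 4949093 reads fell on exons in queens, and 5476218 and 5243286 in workers. The 10 most abundant genes took 6.88% and 7.02% of these reads in queens and 24.9% and 23.4% in workers, so that all other genes shared a smaller part of the worker libraries. Whole-larva markers moved with caste: all 5 of the 6 fat body markers that had a row (4 hexamerins and Vg) were called higher in workers, with summed levels of 18473 and 20826 CPM (exon reads relative to the TMM-scaled library total) in queens against 261598 and 241240 CPM in workers. Of 12 muscle markers 5 had a row and the 4 tested were called higher in workers (summed 726 and 700 CPM in queens, 2940 and 3035 CPM in workers), while TpnCIIIa had no read in queen sample 1. Of 9 nervous system markers 3 had a row, with summed levels of 6.63 and 7.77 CPM in queens and 17.9 and 16.8 CPM in workers, and 1 of the 2 tested was called higher in workers. The 4 silk gland fibroins summed to 14.5 and 9.12 CPM in queens and to 5.96 and 5.52 CPM in workers, with 1 of the 2 tested called higher in queens, and jhamt, a marker of the corpora allata, was not called. The part of these tissues in the results below was not tested.

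None of the 7 genes described passed the adjusted test between queens and workers on exon reads with TMM scaling, whereas some passed with other scalings or read counts. Exon reads were compared with edgeR's quasi-likelihood test after TMM scaling, which assumes that most genes do not differ, with Benjamini-Hochberg adjustment and a threshold of 0.05. In that test 7833 genes were tested and 1437 (18.3%) were called, 495 (6.32%) higher in queens and 942 (12.0%) higher in workers. All 7 were tested and 0 were called. An unadjusted p under 0.05 was found for 3 (Akt1, Tor and foxo), beside 2671 of the 7833 genes tested. DESeq2's Wald test also called 0, with 2 of the 7 under an unadjusted p of 0.05, beside 2180 of the 7833 genes tested. The median log2 fold change, queens over workers, was -0.14 over the 7 genes and 0.01 over all tested genes. The largest of the 7 with TMM scaling was 0.52 in size, and 68.1% of all tested genes changed by that much or less.

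**Figure D1:**
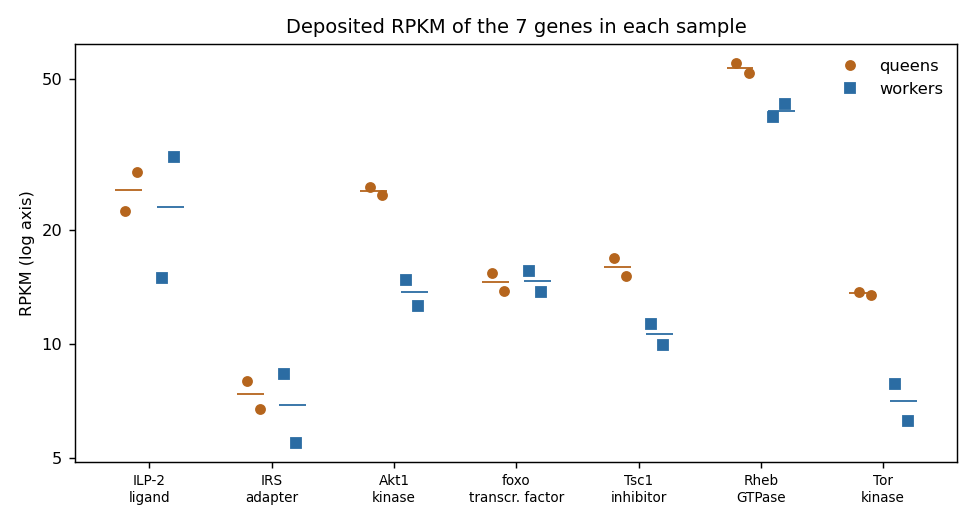
RPKM (exon reads divided by exon length and by the reads on genes, log axis) of each of the 7 genes in the 2 queen samples (circles, left of each pair) and the 2 worker samples (squares, right), with a line at the mean of each caste. The castes are apart for Akt1, Tsc1, Rheb and Tor, higher in queens in each case, and overlap for ILP-2, IRS and foxo; RPKM is scaled by library totals, and 68.1% of all tested genes were higher in both queen samples in the same way.

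The deposited RPKM, which is divided by exon length and so allows levels to be compared between genes, put the 7 genes in the middle and upper range of the larval transcriptome. Rheb had the highest mean over the 4 samples, 47.4 RPKM (percentile 85 of the 9578 genes with any read), and IRS the lowest, 7.14 RPKM (percentile 41.9), with a median of 10.3 RPKM over those 9578 genes. In queens the order was Rheb, ILP-2, Akt1, Tsc1, foxo, Tor and IRS, and the neighbours ILP-2 and Akt1, and Tsc1 and foxo, overlapped between samples. In workers the order was Rheb, ILP-2, foxo, Akt1, Tsc1, Tor and IRS, and here ILP-2 and foxo, foxo and Akt1, and Tor and IRS overlapped. The RPKM of 4 of the 7 genes did not overlap between the castes and was higher in queens, but so it was for 68.1% of all tested genes, and for 11.9% it was higher in both worker samples. After TMM scaling, 2 genes (Akt1 and Tor) did not overlap and were higher in queens, beside 31.7% of all tested genes, and 3 (IRS, foxo and Rheb) did not overlap and were higher in workers, beside 32.1% of all tested genes.

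ILP-2, one of the insulin-like peptides of the honeybee and the ligand in the group, had the fewest reads and the widest spread. It received 56 and 68 exon reads in queens and 38 and 78 in workers, or 22.4 and 28.5 RPKM in queens and 14.9 and 31.1 RPKM in workers. The 2 worker samples lay on either side of both queen samples. Its log2 fold change was -0.37 (SE 0.40, 95% interval -1.37 to 0.63, edgeR adjusted p = 0.56), and without worker sample 2 it was 0.28. The gene lies at bases 1303387 to 1304999 of scaffold NW_003377960 (Amel_4.5), with 2 exons of 404 bases in all. It overlaps LOC724646 over 645 bases. Since the strandedness of the libraries is not given in the sources used here, reads of an overlap cannot be told apart. The same limit holds for the overlaps of Akt1, Tsc1, Rheb and Tor given below.

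IRS, the adapter between the insulin receptor and PI3-kinase, received 256 and 206 exon reads in queens and 272 and 176 in workers (7.99 and 6.75 RPKM in queens, 8.33 and 5.49 RPKM in workers). Both queen samples lay between the 2 worker samples in reads and RPKM, whereas after TMM scaling they were at 40.4 and 34.8 CPM, just below the workers at 60.0 and 40.5 CPM. Its log2 fold change was -0.42 (SE 0.22, 95% interval -0.98 to 0.14, edgeR adjusted p = 0.25). IRS spans bases 633914 to 643897 of scaffold NW_003378065 in 10 exons, with no overlapping gene.

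Akt1, the kinase at the centre of the insulin branch, was 1.3-fold higher in queens after TMM scaling without passing the adjusted test. It received 530 and 481 exon reads in queens and 308 and 258 in workers, which is 26.0 and 24.8 RPKM in queens and 14.8 and 12.6 RPKM in workers. Both queen samples were above both worker samples in RPKM and in TMM-scaled CPM (83.7 and 81.2 CPM in queens, 68.0 and 59.3 CPM in workers). The log2 fold change was 0.37 (SE 0.12, 95% interval 0.07 to 0.68, edgeR adjusted p = 0.094). It stayed above 0 in all 16 alternatives, ranging between 0.28 and 0.91, and was called in 4 of them. These were library totals with or without the 10 most abundant genes and the 2 limma fits on RPKM. In them 18.2% to 47.3% of the genes tested were called higher in queens. With single-place reads the value was 0.31 (edgeR adjusted p = 0.13). Reads matching further places numbered 52 and 44 in queens and 18 and 14 in workers. Akt1 lies at bases 254445 to 259469 of scaffold NW_003378155 in 7 exons and overlaps LOC413429 over 1385 bases and sec5 over 103 bases.

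The transcription factor foxo, which insulin signalling holds back, had the largest log2 fold change in size of the 7 genes with TMM scaling, and the smallest with library totals alone. It received 220 and 188 exon reads in queens and 228 and 196 in workers, and its RPKM was 14.6 ± 1.11 in queens and 14.6 ± 1.38 in workers (SD, n = 2 each). The castes overlapped in RPKM, whereas after TMM scaling both queen samples (34.7 and 31.7 CPM) were below both worker samples (50.3 and 45.1 CPM). The log2 fold change was -0.52 (SE 0.14, 95% interval -0.88 to -0.16, edgeR adjusted p = 0.064) with TMM factors and 0.02 (SE 0.14, adjusted p = 0.91) with library totals alone, where the median of all genes was 0.55. By distance of the centred log2 CPM over the 4 samples, the 3 tested genes most like foxo were LOC100577364 (distance 0.028), LOC409658 (0.043) and Slip1 (0.058). Each had a log2 fold change between -0.54 and -0.51, a closeness to foxo that follows from the choice by distance.

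Reads of foxo outside its exons gave a difference that passed a test added after the data were seen. The annotated gene spans 254497 bases (242645 to 497141 of scaffold NW_003378046, where it is the last annotated gene and overlaps no other), longer than 99.7% of expressed genes, with 8 exons of 2313 bases in all. Reads within the gene but off the exons numbered 206 and 200 in queens and 237 and 319 in workers. They made up 48.4% (Wilson 95% interval 43.6 to 53.1) and 51.5% (46.6 to 56.5) of all foxo reads in queens, and 51% (46.4 to 55.5) and 61.9% (57.7 to 66) in workers. The median share was 6.44% over the 7824 genes with at least 100 reads. Over the 4 samples together foxo was at 53.6%, and 88.4% of those genes had a lower share. At most 3 reads in any sample crossed a border between a foxo exon and intron. The share itself was 50 ± 2.26% in queens and 56.5 ± 7.76% in workers (SD, n = 2 each). An exact two-sided permutation test gave p = 0.667, and with 2 samples against 2 it cannot fall below 0.333, so that it could not have shown a difference. Counted over all its gene reads, foxo was called lower in queens (log2 fold change -0.71, SE 0.12, edgeR adjusted p = 0.016), as 12.9% of the genes in that test were. Over the reads outside exons alone, the added test, the log2 fold change of foxo was -0.78 (SE 0.20, edgeR adjusted p = 0.028), and 10.5% of the genes tested were called in that direction. Of the 7 genes, 5 were tested on these reads and 1 (foxo) was called. Of the other genes of the pathway 10 were tested on them and 0 were called. Intervals of read shares cover counting error only, and reads were not marked by molecular identifiers.

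**Figure D2:**
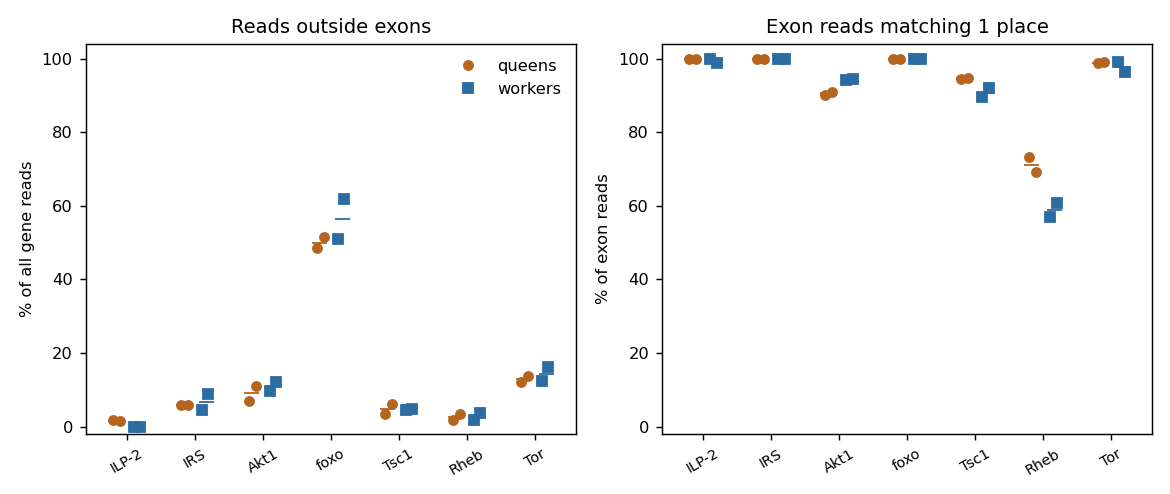
Share of all gene reads that lie outside exons (left, percent) and share of exon reads that match 1 place in the genome (right, percent) for each gene in the 2 queen samples (circles) and the 2 worker samples (squares), with a line at each caste mean. The reads of foxo stand apart on the left, with 48.4% to 61.9% outside exons, and those of Rheb on the right, with 73.2% and 69.1% matching 1 place in queens and 56.9% and 60.7% in workers.

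Tsc1, the partner of Tsc2 in the complex that restrains Rheb, received 408 and 346 exon reads in queens and 277 and 239 in workers. Its RPKM was 16.0 ± 1.31 in queens and 10.6 ± 0.968 in workers (SD, n = 2 each), with no overlap. After TMM scaling the castes overlapped and the log2 fold change was 0.08 (SE 0.13, 95% interval -0.24 to 0.40, edgeR adjusted p = 0.70). Tsc1 has 15 exons at bases 680475 to 686818 of scaffold NW_003378131 and overlaps LOC408911 over 324 bases and Sug over 1334 bases.

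Rheb, the GTPase that activates TOR, was the most highly expressed of the group and the one whose reads were least specific. It received 228 and 204 exon reads in queens and 167 and 178 in workers, or 55.2 and 51.9 RPKM in queens and 39.7 and 43.0 RPKM in workers. The log2 fold change over all exon reads was -0.14 (SE 0.14, 95% interval -0.50 to 0.21, edgeR adjusted p = 0.53). Only part of these reads matched a single place: 73.2% (Wilson 95% interval 67.1 to 78.6) and 69.1% (62.5 to 75.1) in queens, and 56.9% (49.3 to 64.2) and 60.7% (53.3 to 67.6) in workers, against a median of 99.9% over genes. Single-place reads numbered 167 and 141 in queens and 95 and 108 in workers, while reads matching further places numbered 61 and 63 in queens and 72 and 70 in workers. In these counts, before any scaling, the single-place reads were more numerous in both queen samples and the others in both worker samples. With single-place reads alone the log2 fold change was 0.13 (edgeR adjusted p = 0.63), so that the direction for Rheb is uncertain. Its annotated position, bases 1 to 4049 of scaffold NW_003378184, begins at the first base of the scaffold and overlaps LOC551381 over 1303 bases.

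Tor, the kinase that Rheb activates, was 1.35-fold higher in queens after TMM scaling, again without passing the adjusted test. It received 662 and 620 exon reads in queens and 386 and 303 in workers, the most of the 7 genes in every sample. Its RPKM was 13.7 and 13.5 in queens and 7.85 and 6.27 in workers, and its TMM-scaled level was 105 and 105 CPM in queens and 85.2 and 69.7 CPM in workers, with no overlap on either scale. The log2 fold change was 0.43 (SE 0.13, 95% interval 0.10 to 0.77, edgeR adjusted p = 0.082). Over 16 alternatives it lay between 0.30 and 0.97 and was called in 4, the same fits as for Akt1. Tor has 6 exons of 7790 bases in all at bases 4217289 to 4226650 of scaffold NW_003378088, and overlaps LOC727234 over 1038 bases.

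The genes called changed with the scaling. With library totals alone the median log2 fold change of all genes was 0.55, and Akt1 (0.91, edgeR adjusted p = 0.0051), Tor (0.97, adjusted p = 0.0053) and Tsc1 (0.62, adjusted p = 0.014) were called higher in queens, as were 47.3% of all tested genes, while 6.20% were called higher in workers. With the 10 most abundant genes left out of the totals, Akt1 and Tor were called higher in queens, beside 18.2% of all tested genes. With limma on the RPKM, which carries the library totals, Akt1, Tor, Tsc1 and Rheb were called higher in queens with a pseudocount of 1 (44.0% of all genes called in that direction) and of 0.1 (43.2%). Library totals moved the 7 genes and the median of all genes by nearly the same amount, so that the order of the genes could not change between the 2 scalings.

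**Figure D3:**
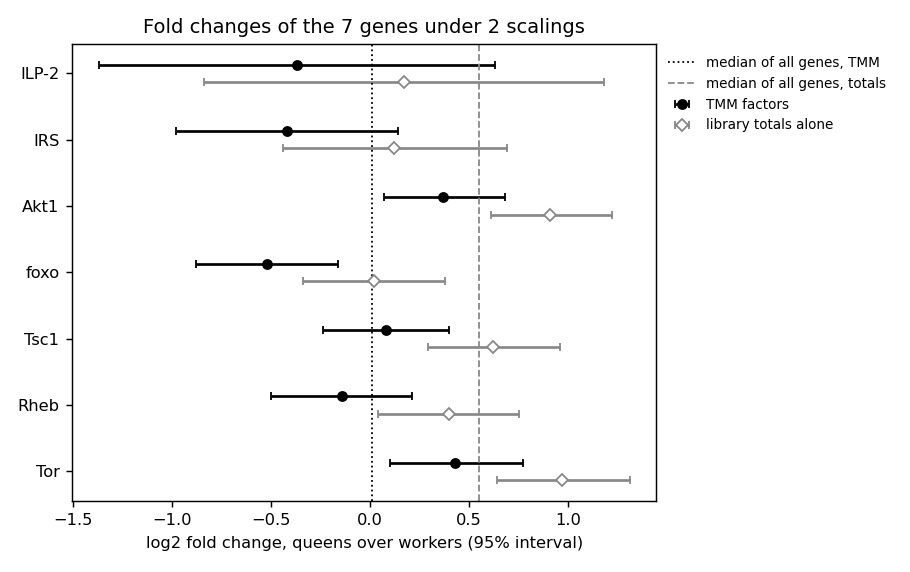
log2 fold change of each gene, queens over workers, with its 95% interval from edgeR, after TMM scaling (filled circles) and with library totals alone (open diamonds). Vertical lines mark the median of all tested genes under each scaling, 0.01 (dotted) and 0.55 (dashed); the 2 sets of points differ by a nearly constant shift, so that their order is the same by construction.

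Ratios of the reads of a pair of genes in the same sample do not depend on the library scaling. Of the pairs set out with the design, 1 is given, against InR-2 (LOC725827). IRS over InR-2 was 5.02 and 5.72 in queens and 7.35 and 5.5 in workers, with overlap of the castes. The log2 difference was -0.25 (exact two-sided permutation test, p = 0.667, n = 2 each), in a design where p cannot fall below 0.333.

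A further 4 ratios were chosen after the values had been seen and are given without a test. Akt1 had 2.41 and 2.56 times the reads of foxo in queens, against 1.35 and 1.32 times in workers, and the difference of the log2 ratios was 0.90. Tor had 3.01 and 3.3 times the reads of foxo in queens, against 1.69 and 1.55 times in workers, a log2 difference of 0.96. Both pairs set the genes with the highest fold changes over the one with the lowest, so that a separation of the castes was built into the choice. Per length, Tor was at 0.893 and 0.979 of the RPKM of foxo in queens and at 0.503 and 0.459 of it in workers. Tor over Tsc1, the kinase over a subunit of its inhibitor, was 1.62 and 1.79 in queens and 1.39 and 1.27 in workers (log2 difference 0.36). Rheb over Tsc1 had a log2 difference of -0.22 with all exon reads and of -0.01 with single-place reads.

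**Figure D4:**
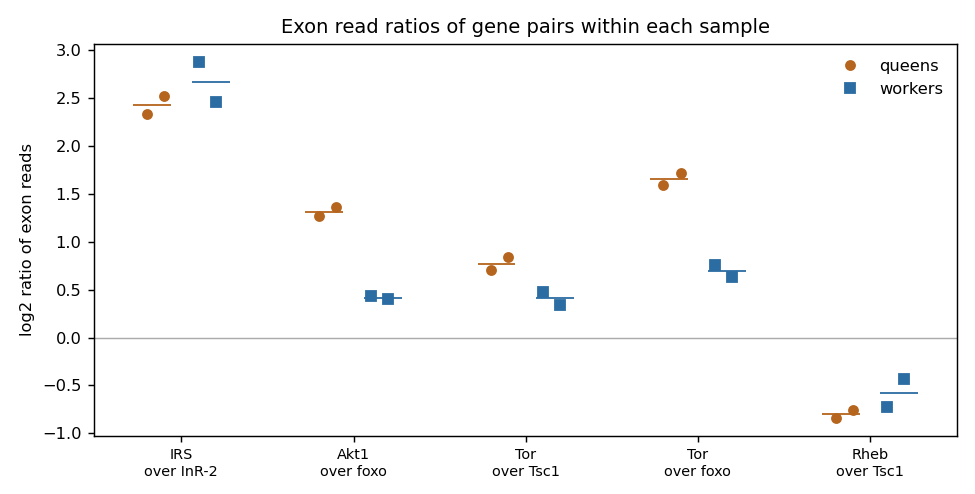
log2 ratio of the exon reads of pairs of genes in each of the 2 queen samples (circles, left) and 2 worker samples (squares, right), with a line at each caste mean; InR-2 is LOC725827. The castes lie farthest apart for Tor over foxo, with log2 means of 1.66 in queens and 0.69 in workers, and for Akt1 over foxo, with 1.31 in queens and 0.42 in workers.

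Beyond the members, lists of the insulin and PI3-kinase, TOR, and EGF receptor and Ras branches held 39 further entries, of which 20 had a row and 19 were tested. Of these 19, 1 was called higher in queens (ImpL2) and 1 higher in workers (sgg), beside 6.32% and 12.0% of all tested genes, and their median log2 fold change was -0.04. The lists are descriptions, and no set test was made.

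In the insulin and PI3-kinase branch 4 of 9 entries had a row. ImpL2, which in Drosophila encodes a secreted protein that binds insulin-like peptides and dampens their signal, had the largest change of all the pathway genes tested. It received 193 and 186 exon reads in queens and 55 and 44 in workers, all of them matching a single place. Its RPKM was 22.4 ± 0.193 in queens and 5.66 ± 0.817 in workers (SD, n = 2 each), and both queen samples were far above both worker samples. The log2 fold change was 1.47 (SE 0.18, 95% interval 1.02 to 1.93, edgeR adjusted p = 0.0069), or 2.78-fold. It lay between 1.35 and 2.01 over 16 alternatives and was called in 15, the exception being the fit without worker sample 2 (1.35, adjusted p = 0.053).

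The kinase gene sgg, the GSK3 of Drosophila and a target of Akt, received 2345 and 2166 exon reads in queens and 2445 and 2445 in workers. After TMM scaling this was 370 and 366 CPM in queens and 540 and 562 CPM in workers, with a log2 fold change of -0.58 (SE 0.09, 95% interval -0.81 to -0.36, edgeR adjusted p = 0.013). Its RPKM was 50.5 ± 1.08 in queens and 52.9 ± 0.679 in workers (SD, n = 2 each), and with library totals alone the log2 fold change was -0.04 (adjusted p = 0.72), again below the median of all genes of 0.55. Without worker sample 1 or worker sample 2 the adjusted p was 0.051 and 0.067. InR-2, the only insulin receptor described here, was listed at 1.61 and 1.2 RPKM in queens and 1.15 and 1.01 RPKM in workers, from 32 to 51 reads per sample. Its log2 fold change was -0.13 (SE 0.28, 95% interval -0.83 to 0.57, edgeR adjusted p = 0.78). Melt had no read in 3 samples and 2 reads in worker sample 2, and was not tested.

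In the TOR branch 8 of 14 entries had a row, and 0 of the 8 tested were called by edgeR or by DESeq2's Wald test. At an unadjusted p under 0.05 there were 1 (edgeR) and 0 (DESeq2), beside 2671 and 2180 of all 7833 genes tested. The median log2 fold change of the 8 was 0.02. The most highly expressed were FK506-bp2, which encodes the rapamycin-binding protein, at 509 ± 2.69 RPKM in queens and 338 ± 6.37 RPKM in workers, and SNF1A, the catalytic subunit of the energy sensor AMPK, at 55.2 ± 2.49 RPKM in queens and 35.6 ± 2.33 RPKM in workers (SD, n = 2 each). Both were higher in queens in RPKM, but after TMM scaling their log2 fold changes were 0.08 and 0.12 (edgeR adjusted p = 0.61 and 0.53). RPTOR and rictor, the defining subunits of the TORC1 and TORC2 complexes, had log2 fold changes of 0.12 (SE 0.14, edgeR adjusted p = 0.61) and -0.04 (SE 0.12, adjusted p = 0.84), and gig, the Tsc2 of Drosophila, had -0.19 (SE 0.14, adjusted p = 0.40). RagA, a GTPase that relays amino acid supply to TORC1, had the lowest value of the branch, -0.52 (SE 0.16, edgeR adjusted p = 0.078), and lkb1, which activates AMPK, the highest, 0.67 (SE 0.33, adjusted p = 0.22).

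In the EGF receptor and Ras branch 8 of 16 entries had a row, and 0 of the 8 tested were called by edgeR or by DESeq2's Wald test. In each test 1 had an unadjusted p under 0.05, beside 2671 (edgeR) and 2180 (DESeq2) of all 7833 genes tested. The median log2 fold change was -0.10. The adapter drk was the most highly expressed, at 68.0 ± 7.21 RPKM in queens and 45.0 ± 5.68 RPKM in workers, followed by rl, the ERK kinase, at 50.2 ± 0.517 RPKM in queens and 35.9 ± 2.58 RPKM in workers (SD, n = 2 each). Their log2 fold changes after TMM scaling were 0.08 and -0.03 (edgeR adjusted p = 0.71 and 0.89). The ETS factor pnt, which acts downstream of ERK, had the lowest value, -0.53 (SE 0.16, edgeR adjusted p = 0.076). It was called lower in queens only when reads over the whole gene were counted, as 12.9% of the genes in that test were. Dsor1, the MEK kinase, had the highest value, 0.32 (SE 0.18, edgeR adjusted p = 0.28).

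**Figure D5:**
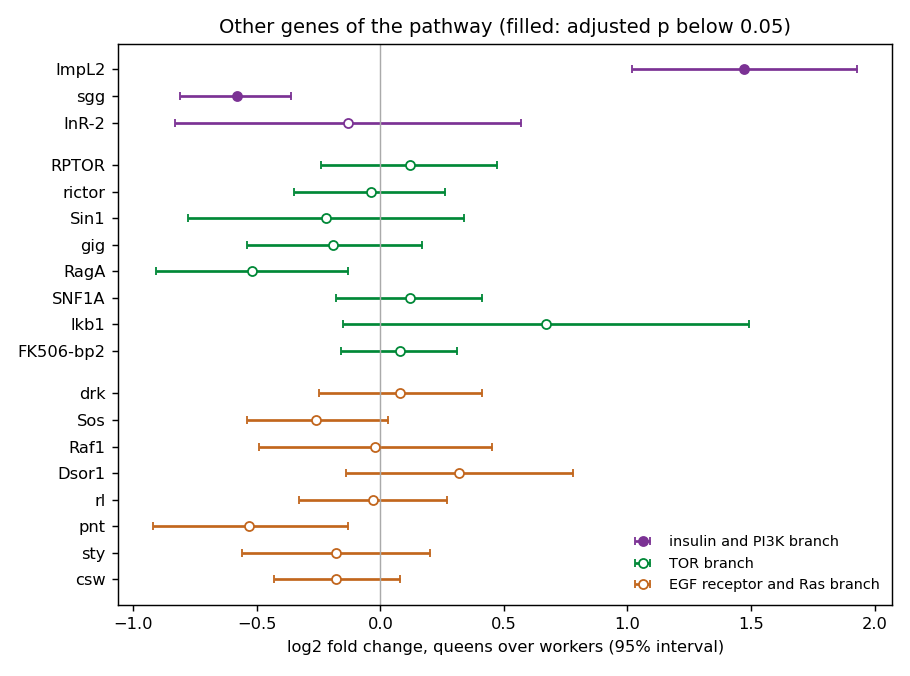
log2 fold change, queens over workers, of the 19 other pathway genes tested, with 95% intervals from edgeR after TMM scaling, grouped by branch; filled points passed the adjusted threshold. Only ImpL2 (1.47) and sgg (-0.58) are filled. The intervals of RagA and pnt also lie below 0, and 2671 of all 7833 genes tested had an unadjusted edgeR p under 0.05.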

How the data were processed

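RNA of whole 60-hour larvae (2 queen and 2 worker samples) was sequenced on an Illumina HiSeq. CLC Genomics Workbench was used by the authors for mapping to Amel_4.5, and the deposited counts per gene cover exons, the whole gene and, for each, reads that match a single place. The authors also deposited RPKM, which equals exon reads scaled by exon length and by the sum of reads on genes. A second table held genes chosen by the authors' comparison with their fold changes and p-values, and was not used here.

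Samples were grouped by title. Exon counts were tested with edgeR 4.0.16 (R 4.3.3), with TMM factors (1.21 and 1.2 in queens, 0.828 and 0.83 in workers), filterByExpr, a quasi-likelihood test and Benjamini-Hochberg adjustment at 0.05. Such totals gave the members standard errors of 0.12 to 0.40 (log2). Alternatives were upper-quartile scaling, library totals with or without the 10 most abundant genes, the Wald test of DESeq2 1.42.0, edgeR with DESeq2 size factors, limma 3.58.1 with a pseudocount of 1 or 0.1 added to the RPKM before log2 for genes of at least 1 RPKM in 2 samples, no filter beyond 1 read, at least 10 reads in every sample, single-place reads, all gene reads, a replicate block, and each sample left out. The tests were tried on simulated counts in which both castes had the same mean profile, apart from genes changed by known amounts. Such counts cannot show which scaling suits these libraries.

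Members and lists were chosen with earlier results of these data known, and 2 list aliases and the insulin receptor entry were added after the gene names in the table had been seen. Of the 8 members, 1 is not reported here and the other 7 are named. Of each list, called genes and otherwise the 2 with the highest mean RPKM are named, and RPTOR, rictor, gig, RagA, lkb1, pnt, Dsor1, InR-2 and Melt were added after their values had been seen. Gene names are those of the table, and LOC725827 was named from RefSeq (Amel_HAv3.1). Promoter and protein sequences were not analysed here.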

Additional observations from a re-analysis of the deposited data

How the results depend on the processing

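Of 7833 genes, library totals alone called 4191 (3705 higher in queens, 486 in workers) where TMM called 1437. Library totals without the 10 most abundant genes called 2077 (1427 in queens, 650 in workers). Of the 7904 genes it tested, limma called 3970 with a pseudocount of 1 (3480 and 490) and 3893 with 0.1 (3414 and 479). Of the 7 members described, those called higher in queens numbered 3, 2, 4 and 4 under these settings, and 1 member (foxo) was called higher in workers with all gene reads. Of the other pathway genes 10, 1, 8 and 8 were called higher in queens and 0, 1, 0 and 0 in workers. With all gene reads 2 of them (sgg and pnt) were called higher in workers, beside 12.9% of the 8666 genes in that test. Values with a turned sign, for library totals alone, limma with 1 and limma with 0.1 in that order, were 0.17, 0.22 and 0.23 for ILP-2, 0.12, 0.10 and 0.12 for IRS, 0.40, 0.37 and 0.37 for Rheb, and 0.41, 0.20 and 0.34 for InR-2 (LOC725827). For foxo it was 0.02 with library totals alone. Without the 10 most abundant genes Rheb had 0.10 and InR-2 0.11, and single-place reads gave 0.13 for Rheb. With library totals alone the median of all genes was 0.55.

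Leaving out 1 sample in turn, which leaves a caste with 1 sample assumed to vary like the other caste, gave 298 to 1314 calls (44 to 444 higher in queens, 254 to 870 in workers), with 465 calls without worker sample 1 and 298 without worker sample 2. None of the 7 was called in any of these fits, 0 to 1 other pathway genes were called higher in queens and 0 to 1 higher in workers. The log2 fold change ranged between -0.82 and 0.28 for ILP-2 and -0.35 and 0.06 for InR-2. The direction of Akt1 and Tor was kept in all 16 alternatives. The value of Tsc1 also stayed above 0, but it fell to 0.01 without queen sample 1 and to 0.01 without worker sample 2. Its direction is therefore uncertain.

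The titles do not say whether same-numbered samples belong together. Deviations of same-numbered samples correlated at -0.04 over 7833 genes, which with 2 samples per caste cannot settle it. With a replicate block 1223 genes were called (404 higher in queens, 819 in workers), with 0 of the 7 and, of the other pathway genes, ImpL2 and sgg. ILP-2, with 38 to 78 reads per sample, had the widest interval of the 7 members described.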
